A study of Mus musculus with 5 samples.

Results

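The Hox genes are 39 protein-coding genes that lie in 4 clusters of the mouse genome and encode homeodomain transcription factors. They were taken as the protein-coding RefSeq genes whose symbol is Hoxa, Hoxb, Hoxc or Hoxd plus a number, 39 of the 21631 protein-coding genes considered (autosomes and X). There were 11 genes in the Hoxa cluster, 10 in the Hoxb cluster, 9 in the Hoxc cluster and 9 in the Hoxd cluster. Binding of NKX2-1, a homeodomain factor of lung epithelium, was mapped by chromatin immunoprecipitation and sequencing (ChIP-seq). The tissue was whole lung at postnatal day 10, and the genotype of every library was Wildtype. Of the 4 antibodies against NKX2-1, Abcam133737, Abcam76013 and Abcam133638 came from one supplier and Millipore07-601 from another, with 1 library each, and an input served as control. Chromatin was pooled from aliquots of nuclei, and the labels used here do not say whether the libraries come from separate animals. With 1 library per antibody and 1 common input, no value has a replicate error, and no p-value is given.

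Hox genes are ordered along each cluster in the same sequence as their domains of expression along the body axis, from the anterior group 1 to the posterior group 13. Genes with the same number in different clusters are paralogues, and the genes of a cluster are transcribed in the same direction. In many adult cell types, clusters that are not in use are covered by polycomb repression. In the developing mouse lung, Hoxa5, Hoxb5 and Hoxc5 are expressed mainly in mesenchyme, and loss of Hoxa5 impairs lung development. NKX2-1 marks the lung epithelium and binds DNA with a CAAG core. Whole lung mixes these cell types, and a site bound in few cells cannot be told apart from a site bound weakly in many.

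The libraries held 43031331 to 46547989 tags after removal of duplicates, against 10653749 tags in the input. The peak lists held 40877 to 57891 peaks. Overlapping peaks were merged into 68919 regions, and a region with a peak of each antibody is called a 4-antibody region below. As a check of the tissue, Nkx2-1, the surfactant genes Sftpc and Sftpb, Cldn18 and the club cell gene Scgb1a1 all had 4-antibody regions within 10 kb, with best mean fold enrichments of 19.7 to 34.7.

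Promoter sequences are shown for 4 genes because they sit on opposite sides of the pattern described below. Hoxb1 was the Hox gene nearest to a 4-antibody region, and Hoxa5 is the Hox gene best known from the lung. Neither of these promoters held a peak summit of any antibody. Mtx2, a mitochondrial import gene, and Lnpk, an endoplasmic reticulum gene, flank the Hoxd cluster, and each had the summit of a 4-antibody region inside the window shown. Each window has 300 bases, from 250 before to 50 after an annotated transcription start (RefSeq, GRCm38.p6, the coordinates of mm10), and is read 5′ to 3′ on the strand of the gene. Capitals mark CAAGTG or CTCAAG on either strand, both of which hold the CAAG core.
Hoxb1, chr11:96365508-96365807, plus strand: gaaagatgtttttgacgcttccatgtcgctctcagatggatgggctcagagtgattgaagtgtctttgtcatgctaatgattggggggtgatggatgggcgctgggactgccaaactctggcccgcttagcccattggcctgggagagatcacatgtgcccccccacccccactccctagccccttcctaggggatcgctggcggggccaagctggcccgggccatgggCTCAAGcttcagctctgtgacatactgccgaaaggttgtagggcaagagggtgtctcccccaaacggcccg
Hoxa5, chr6:52204538-52204837, minus strand: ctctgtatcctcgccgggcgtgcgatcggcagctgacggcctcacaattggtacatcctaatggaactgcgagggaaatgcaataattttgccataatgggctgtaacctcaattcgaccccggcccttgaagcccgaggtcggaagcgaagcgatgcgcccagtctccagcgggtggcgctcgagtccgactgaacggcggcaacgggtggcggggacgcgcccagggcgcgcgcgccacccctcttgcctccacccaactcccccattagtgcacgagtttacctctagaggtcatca
Mtx2, chr2:74825562-74825861, plus strand: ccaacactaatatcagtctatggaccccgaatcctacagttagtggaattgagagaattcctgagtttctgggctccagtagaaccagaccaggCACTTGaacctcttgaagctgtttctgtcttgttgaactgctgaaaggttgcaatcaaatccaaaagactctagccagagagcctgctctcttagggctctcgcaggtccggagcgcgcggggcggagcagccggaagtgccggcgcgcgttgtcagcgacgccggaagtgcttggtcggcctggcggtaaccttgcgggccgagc
Lnpk, chr2:74578899-74579198, minus strand: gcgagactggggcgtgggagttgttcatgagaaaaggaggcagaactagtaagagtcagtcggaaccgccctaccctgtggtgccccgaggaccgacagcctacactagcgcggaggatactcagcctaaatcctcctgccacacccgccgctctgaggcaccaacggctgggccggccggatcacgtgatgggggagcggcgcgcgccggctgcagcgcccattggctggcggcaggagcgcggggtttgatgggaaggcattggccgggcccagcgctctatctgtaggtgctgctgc

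The Hox genes carried almost no NKX2-1 peaks. A 4-antibody region with a peak summit inside the gene or within 10 kb of it was found for 1 of 39 Hox genes (2.56%, exact Clopper-Pearson interval 0.0649 to 13.5), against 58.6% of all protein-coding genes. A region of at least 3 antibodies was found for the same number, 1 of 39, against 64.1% of all genes, and one of at least 2 antibodies for 2 of 39, against 68.3%. The interval covers counting error only and treats the genes as independent, although Hox genes lie side by side. The gene with the 4-antibody region was Hoxb1, which specifies hindbrain segments. A peak of any antibody was found for 7 of 39 Hox genes (17.9%), against 72.6% of all protein-coding genes. None of the 21 peaks in the clusters and their flanks had its summit inside a Hox gene.

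The 4 antibodies differed in how many Hox genes had a peak within 10 kb. Abcam133737 had a peak at 2 of 39 Hox genes, against 63.6% of all genes. Millipore07-601 had one at 7 of 39, against 69.1%. Abcam76013 and Abcam133638 each had one at 1 of 39, against 63.3% and 70.3%. Without Millipore07-601, the count with any antibody was 2 of 39 rather than 7, so that 5 of the genes, all of the Hoxc cluster, rested on that library alone. In each of the lists the share of Hox genes stood far below the share of all genes, as the bars by antibody show.

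**Figure D1:**
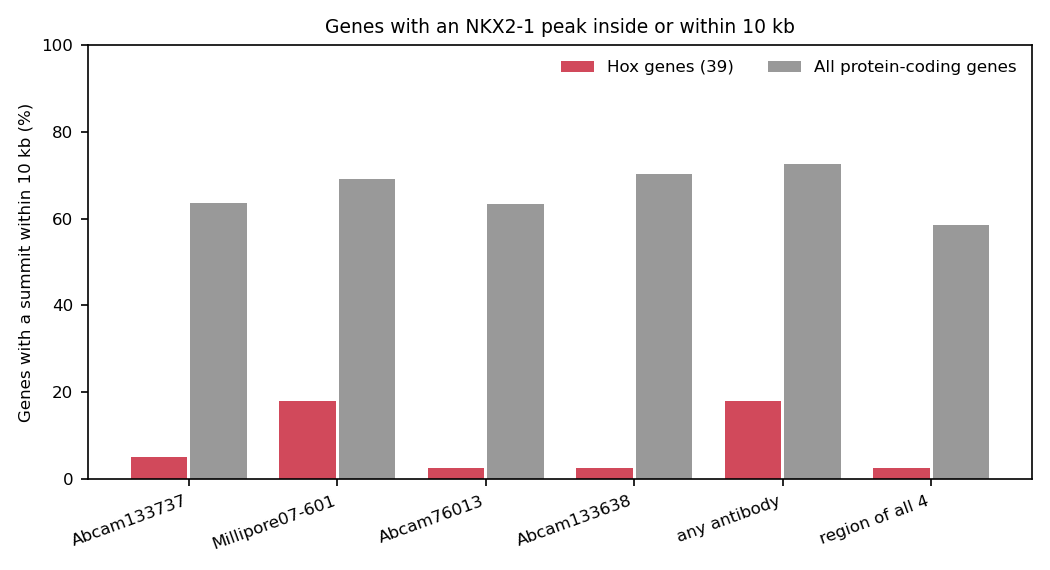
Percent of the 39 Hox genes (red) and of all protein-coding genes (grey) with a peak summit inside the gene or within 10 kb, for each antibody, for any antibody and for regions called with all 4. The Hox bars reach 17.9% at most, and the grey bars run from 58.6% to 72.6%.

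Most Hox genes are short, and a short gene offers a smaller target. The median length was 3.74 kb for Hox genes and 17.3 kb for all genes, and 33 of 39 Hox genes spanned at most 10 kb. Among the 7742 protein-coding genes of that length, 41.6% had a 4-antibody region within 10 kb and 54.1% a peak of any antibody. These shares were added after seeing the data. Counting shared stretches once, the windows of the Hox genes covered 0.517 Mb and held 1.93 4-antibody regions per Mb. The windows of all protein-coding genes covered 1281 Mb and held 19.5 per Mb.

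The 32 Hox genes without any peak within 10 kb were spread over all 4 clusters. In the Hoxa cluster they included Hoxa2, Hoxa3, Hoxa4, Hoxa5, Hoxa6, Hoxa7, Hoxa9, Hoxa10 and Hoxa11. In the Hoxb cluster they were Hoxb2, Hoxb3, Hoxb4, Hoxb5, Hoxb6, Hoxb7, Hoxb8, Hoxb9 and Hoxb13. In the Hoxc cluster they were Hoxc8, Hoxc9, Hoxc12 and Hoxc13. All 9 genes of the Hoxd cluster, Hoxd1, Hoxd3, Hoxd4, Hoxd8, Hoxd9, Hoxd10, Hoxd11, Hoxd12 and Hoxd13, had none. By paralogue group, groups 2, 3, 7, 8, 9 and 12 had no gene with a peak, and each of the other 7 groups had 1. Of the genes known from lung development, Hoxa5 lay 52.8 kb from the nearest peak of any antibody and Hoxb5 66.5 kb, while Hoxc5 had a peak of 1 antibody beside it.

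**Figure D2:**
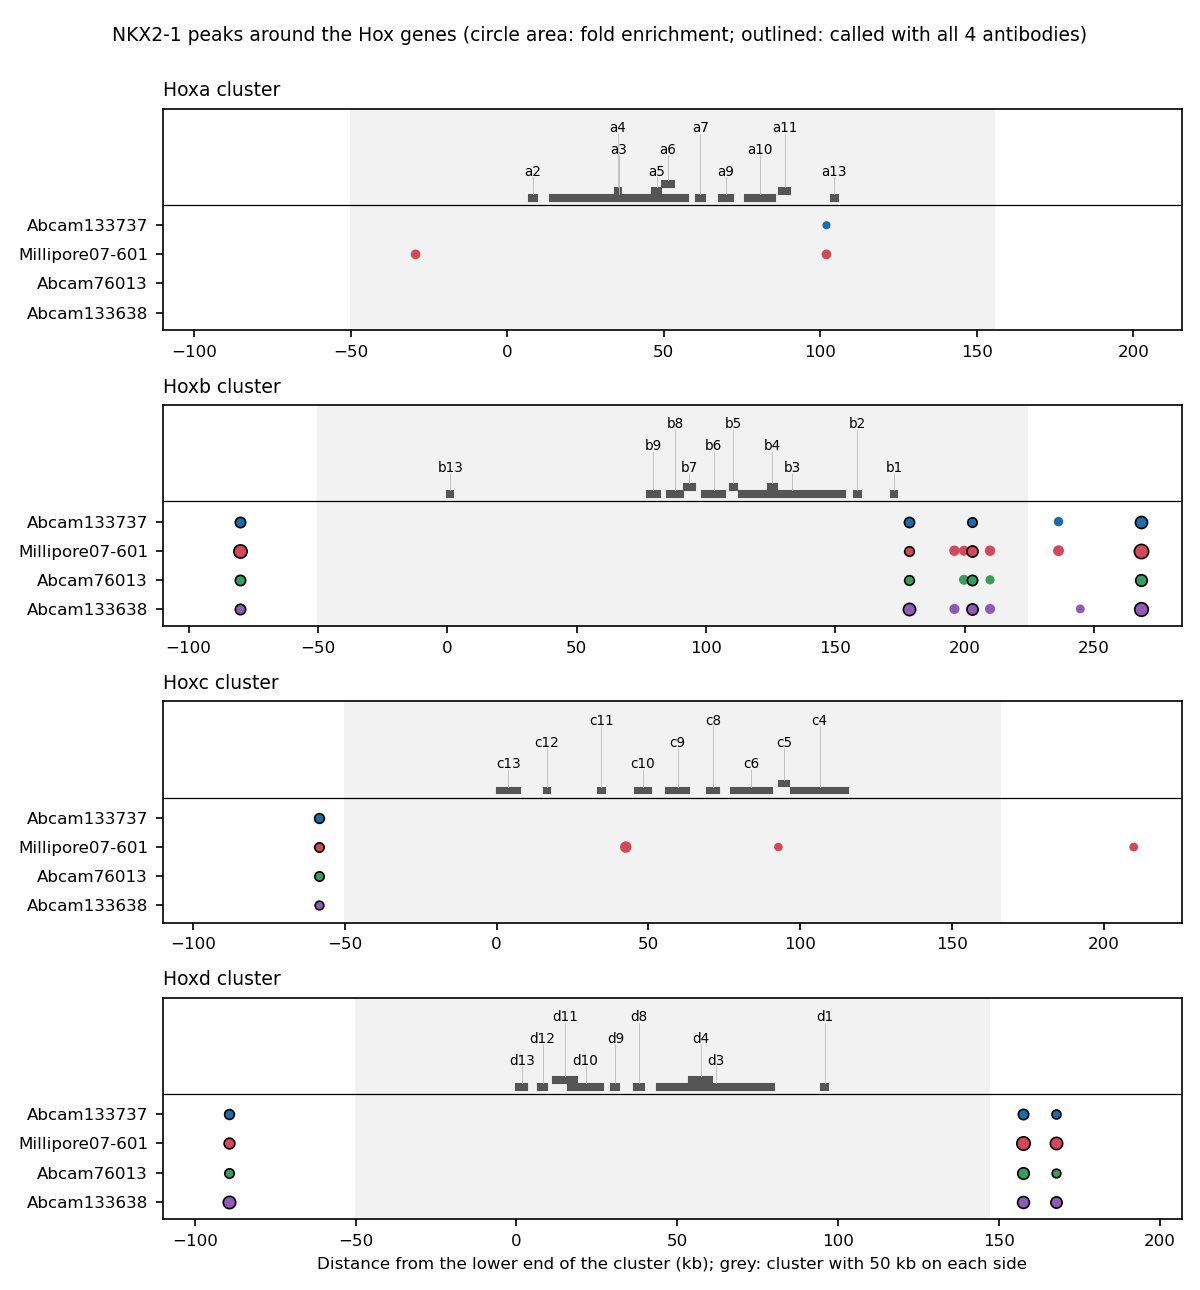
Hox genes (dark boxes, labelled by cluster letter and group number, with 1 gene not drawn) and NKX2-1 peaks of each antibody (circles, area proportional to fold enrichment, outlined where the region was called with all 4 antibodies), plotted by distance in kb from the lower end of each cluster. The grey band marks the cluster with 50 kb on each side, which held 9 regions, and the Hoxd band is empty.

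Across each cluster with 50 kb on each side, 9 merged regions were found. The Hoxb stretch (274 kb) held 5, the Hoxa stretch (206 kb) and the Hoxc stretch (216 kb) held 2 each, and the Hoxd stretch (197 kb) held 0. Of these 9 regions, 3 had a peak of 1 antibody, 3 of 2 antibodies, 1 of 3 and 2 of all 4. These are shares of 33.3%, 33.3%, 11.1% and 22.2%. Over all merged regions the shares were 25.2%, 15.4%, 13.5% and 45.9% in the same order. Between the first and last Hox gene of the clusters, 0.492 Mb in all, there were 3 regions and no 4-antibody region. The density with flanks was 10.1 regions and 2.24 4-antibody regions per Mb, against 26.2 and 12.0 per Mb over chromosomes 1 to 19 and X.

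Stretches without a 4-antibody region were common in the genome but less so among stretches as rich in genes. Chromosomes 1 to 19 and X were divided into windows of the length of each of the 4 stretches. Between 41.0% and 46.7% of these windows, by stretch, held no 4-antibody region. Among windows with the midpoints of at least 9 protein-coding genes, 17.2% to 20.9% held none, and the median was 7 to 8 such regions. An empty stretch like that of Hoxd was not rare. At its length, 36.0% of all windows and 14.7% of these gene-rich windows held no region of any antibody.

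Both 4-antibody regions lay beyond the Hoxb1 end of the Hoxb cluster. The nearer one (mm10, chromosome 11, 96372459 to 96372838) had its summit 4.41 kb past the 3′ end of Hoxb1, outside any protein-coding gene. Its fold enrichment was 4.73 with Abcam133737, 4.23 with Millipore07-601, 4.26 with Abcam76013 and 6.90 with Abcam133638, at pileups of 22, 19, 20 and 31 tags. In its own list each of these peaks ranked at percentile 39.5, 21.3, 28.6 and 61.9 by fold. Its value with Abcam133638 was thus above that list's median, and the other 3 values were below theirs. In mice, retinoic acid response elements that act on Hoxb1 are known downstream of the gene, and whether the region holds one was not tested.

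The other 4-antibody region (chromosome 11, 96396998 to 96397665) lay 28.9 kb from Hoxb1. Its fold was 4.12 with Abcam133737, 5.71 with Millipore07-601, 4.87 with Abcam76013 and 5.82 with Abcam133638. The mean fold of the nearer region was 5.03 and that of the farther one 5.13, against a median of 7.14 over all 31606 4-antibody regions, of which 84.0% and 82.2% were stronger. Weak regions of this kind made up the lower part of the 4-antibody set, whose 5th percentile was 4.29.

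Between and beyond these regions lay 3 others called with fewer antibodies. One 22.1 kb from Hoxb1 (96390096 to 96390433) had a fold of 5.08 with Millipore07-601 and 4.74 with Abcam133638. One at 25.8 kb (96393908 to 96394131) had 4.65 with Millipore07-601 and 4.67 with Abcam76013. One at 35.8 kb (96403969 to 96404181) had 5.08 with Millipore07-601, 3.92 with Abcam76013 and 4.74 with Abcam133638. All 5 regions of the Hoxb stretch therefore lay on the Hoxb1 side, between the cluster and Skap1, and the flank on the side of Hoxb13 held none.

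In the Hoxa cluster, the region at Hoxa13, a gene of digit and genital tract formation, had peaks of 2 antibodies (chromosome 6, 52257148 to 52257421). Its summit lay 1.51 kb past the 3′ end of the gene, with a fold of 3.09 and 14 tags for Abcam133737 and a fold of 4.44 and 20 tags for Millipore07-601. These ranked at percentiles 3.17 and 26.0 of their lists, both in the weaker part. The same region lay within 10 kb of the long non-coding RNA genes Hottip and Hoxa11os. The other region of the Hoxa stretch was a Millipore07-601 peak with a fold of 4.35 in a flank of the cluster.

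In the Hoxc cluster, both regions were peaks of Millipore07-601 alone. The stronger one (chromosome 15, 102963505 to 102963708) lay between Hoxc11, at 6.94 kb, and Hoxc10, at 3.15 kb, genes that pattern the lumbar and sacral levels. Its fold was 6.15 with 30 tags, at percentile 54.2 of its list. The weaker one (103013871 to 103014050) had its summit 0.088 kb before the 5′ end of Hoxc5, and within 10 kb of Hoxc4 and Hoxc6. Its fold was 3.38 with 15 tags, at percentile 5.49. The other 3 antibodies gave no peak at either place. Without Millipore07-601 the Hoxc stretch held 0 regions, the Hoxa stretch 1 and all 4 stretches 6.

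**Figure D3:**
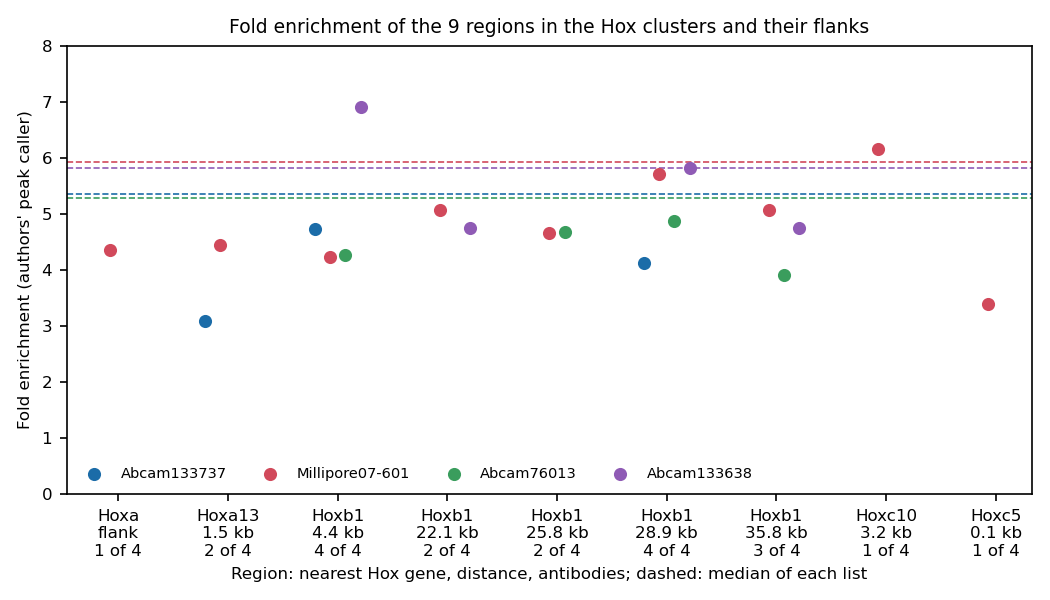
Fold enrichment, as the authors' caller gave it, of the highest peak of each antibody (colours) in the 9 regions, labelled by the nearest Hox gene, the distance to it and the number of antibodies (for 1 region by its cluster and the number of antibodies only). Dashed lines are the medians of the lists, and 2 points lie above the line of their own list by a visible margin, those of Abcam133638 near Hoxb1 and of Millipore07-601 near Hoxc10.

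Within each list, the peaks near Hox genes had a median fold below that of the whole list. The median fold of the peaks in these regions was 4.12 for Abcam133737 (3 peaks), 4.65 for Millipore07-601 (9 peaks), 4.26 for Abcam76013 (5 peaks) and 5.28 for Abcam133638 (4 peaks). The medians of the whole lists were 5.35, 5.92, 5.28 and 5.82 in the same order. The ratio of these medians averaged 0.818 ± 0.062 (SD over the 4 antibodies, which are not replicates). Compared by the mean fold of regions, with the antibodies of a region averaged first, the difference was smaller. The median of the mean folds of the 9 regions was 0.936 times that of all regions. Ratios taken library by library, from the highest peak of each region, had an SD of 0.063. That SD is not the spread of the 0.936. The 9 regions also had a different mix, with 22.2% called with all 4 antibodies, against 45.9% of all regions. Their mean folds were therefore also set beside those of regions with as many antibodies. The regions of 1 antibody had mean folds of 3.38, 4.35 and 6.15, against a median of 4.02 over all such regions. Those of 2 antibodies had 3.76, 4.66 and 4.91, against 4.34, and the one of 3 antibodies had 4.58, against 4.70. Only the pair with 4 antibodies, at 5.03 and 5.13, stood well below its median, 7.14. For 18 of the 21 peaks the local background that the caller used was the constant of its list (tolerance 0.02 tags), against 62.0% of all peaks, so the fold of these peaks was a pileup over a constant.

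Distances to the nearest 4-antibody region gave the same picture without a fixed window. The median over the 39 Hox genes was 104 kb (range 4.41 to 190 kb), against 2.00 kb over all protein-coding genes, and 22.2 kb over genes of at most 10 kb. The distance exceeded 20 kb for 37 of 39 Hox genes, all but Hoxb1 and Hoxb2 (18.6 kb). It did so for 35.2% of all genes and for 51.3% of genes of at most 10 kb. Hoxa genes were the farthest, at 129 to 190 kb with a median of 172 kb. Hoxc genes lay at 58.6 to 146 kb (median 114 kb), Hoxd genes at 60.6 to 119 kb (median 96.6 kb) and Hoxb genes at 4.41 to 96.1 kb (median 68.8 kb). The ranges of the Hoxb, Hoxc and Hoxd clusters overlapped, and that of the Hoxa cluster overlapped with the Hoxc range.

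**Figure D4:**
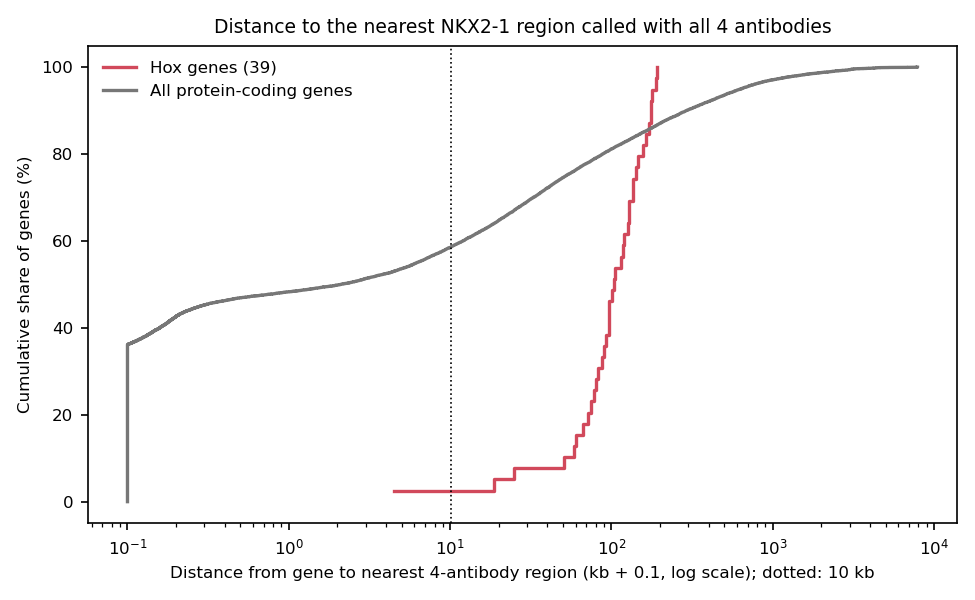
Cumulative share of genes by distance to the nearest 4-antibody region (kb plus 0.1 on a log axis), for Hox genes (red) and all protein-coding genes (grey). At 10 kb (dotted) the red line is at 2.56% and the grey line at 58.6%, and the 39 Hox genes end at 190 kb.

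Each cluster lay inside 1 long gap between neighbouring 4-antibody regions. The Hoxa gap was 391 kb long (chromosome 6, 52026616 to 52417230) and held all 11 Hoxa genes and Evx1, a homeobox gene next to the cluster. The Hoxb gap was 258 kb long (chromosome 11, 96114380 to 96372458) and held all 10 Hoxb genes and Ttll6. The Hoxc gap was 300.5 kb long (chromosome 15, 102862696 to 103163189) and held the 9 Hoxc genes. The Hoxd gap was 246 kb long (chromosome 2, 74579127 to 74825563) and held the 9 Hoxd genes and Evx2. Of the 31585 gaps on chromosomes 1 to 19 and X, whose median was 18.3 kb, 3.54%, 5.49%, 4.71% and 5.72% were at least as long, in the same order.

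Few gaps held as many genes. Leaving out predicted and chemoreceptor genes, 48 gaps (0.152%) held at least the 12 genes of the Hoxa gap, 59 (0.187%) at least the 11 of the Hoxb gap, 68 (0.215%) at least the 10 of the Hoxd gap and 87 (0.275%) at least the 9 of the Hoxc gap. With those genes kept, the counts were 103 (0.326%) for the Hoxa gap, 116 (0.367%) for the Hoxb gap, 126 (0.399%) for the Hoxd gap and 151 (0.478%) for the Hoxc gap. These counts include the Hox gaps themselves.

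**Figure D5:**
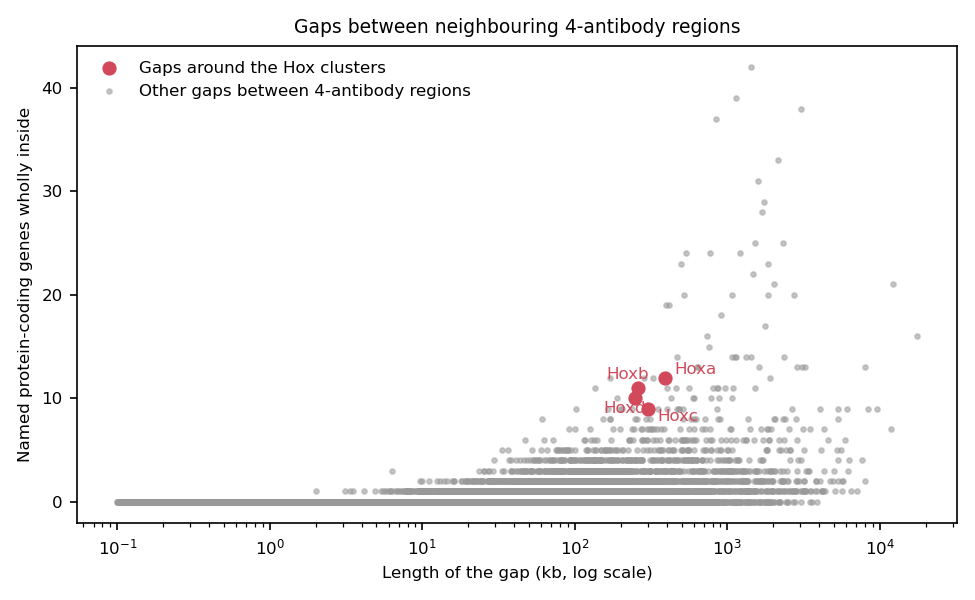
Length of each gap between neighbouring 4-antibody regions (kb, log axis) against the number of named protein-coding genes wholly inside it. The 4 gaps around the Hox clusters (red) are 246 to 391 kb long and hold 9 to 12 genes.

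The gene nearest to the edge of a gap was no Hox gene at 6 of 8 edges, and was Hoxb1 and Hoxc13 at the other two. The Hoxd gap ran from Lnpk to Mtx2, whose promoters are printed above. At Lnpk the fold was 4.40 with Abcam133737, 5.28 with Millipore07-601, 4.10 with Abcam76013 and 7.03 with Abcam133638. At Mtx2 it was 4.94, 8.25, 6.09 and 6.47 in the same order, with the summit 0.0975 kb before the start of the gene. The Hoxa gap ended 13.9 kb from Skap2 and 99.1 kb from Evx1, at mean folds of 6.78 and 8.63. The Hoxb gap began inside Calcoco2 at a mean fold of 5.70, and the Hoxc gap ended inside Smug1, a DNA repair gene, at 5.28. At its other end the Hoxc gap began 58.6 kb from Hoxc13, at a mean fold of 3.96. All of these edges except that near Evx1 were below the median of 7.14 for 4-antibody regions.

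The Hox promoters whose sequence was searched were also free of summits. Their share with CAAGTG or CTCAAG was near that of all promoters, within a wide interval. Promoters with and without a summit hardly differed in this share, so it says nothing about the lack of summits. The promoter of Hoxc5 was not among those searched. A Millipore07-601 summit lay 0.088 kb before the 5′ end of Hoxc5, inside the 250 bases before a start that count as promoter here. The sequence table had 24 promoters of 22 Hox genes, mostly of the Hoxa and Hoxd clusters. From the Hoxb cluster it had only Hoxb1, Hoxb4 and Hoxb8, and from the Hoxc cluster only Hoxc4. Of these promoters 0 of 24 held a summit of any antibody, against 29.4% of 32619 promoters, and 15.7% of all promoters held the summit of a 4-antibody region. CAAGTG or CTCAAG, on either strand, was present in 6 of 24 Hox promoters (25.0%, exact interval 9.77 to 46.7) and in 26.2% of all promoters. The share of either motif was 27.2% in the 5111 promoters with a 4-antibody summit and 26.9% in promoters with no summit. Taken singly, CAAGTG was in 1 of 24 Hox promoters (4.17%, exact interval 0.105 to 21.1) against 13.5% of all. CTCAAG was in 5 of 24 (20.8%, exact interval 7.13 to 42.2) against 15.7%. The 6 Hox promoters were those of Hoxa9, Hoxa10, Hoxb1, Hoxd4, Hoxd10 and Hoxd12. In the Hoxb1 promoter shown above, CTCAAG began 21 bases before the start. In the Mtx2 promoter the match, written CACTTG on the strand shown, lay 56 bases from the summit, and the Lnpk promoter had no match. The longer CACTCAAG was in 0 of 24 Hox promoters, 2.23% of promoters with a 4-antibody summit and 0.929% of those with no summit. Median GC content was 57.7% in Hox promoters and 53.0% in all promoters.

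RNA genes within the clusters and flanks were counted in the same way. Of 27 long non-coding RNA genes, 2 had a peak of any antibody within 10 kb, Hoxa11os and Hottip, against 55.6% of all 12697 such genes. Of 6 microRNA genes, 2 had one, against 53.0% of all 1228. These were Mir196a-2 and Mir615, with a peak of Millipore07-601 alone, and Mir10a, Mir10b, Mir196a-1 and Mir196b had none. A 4-antibody region within 10 kb was found for 0 of 27 and 0 of 6, against 38.1% of all long non-coding RNA genes and 37.6% of all microRNA genes. With 6 microRNA genes, some of them close together, the last count is a description only. The other protein-coding genes within 50 kb of a cluster, Ttll6 and Evx2, had no peak within 10 kb. For Ttll6 the nearest 4-antibody region lay just beyond that limit, at 10.3 kb, and for Evx2 at 74.0 kb.

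Genes that act with or upstream of the Hox genes were not short of NKX2-1 regions in the same lists. Among the TALE homeodomain cofactors of HOX proteins, 6 of 9 had a 4-antibody region within 10 kb, against 58.6% of all genes. Their strongest were at Pbx2 (mean fold 19.2) and Pbx3 (13.6), and Meis1, Meis3 and Pknox2 had none. Among Cdx and retinoic acid genes, which regulate Hox expression, 8 of 13 had one (61.5%), near the share of all genes. The strongest were at the retinoid receptor gene Rxra (44.0), the retinoic acid synthesis gene Aldh1a2 (22.8) and Rarb (22.6). The region at Cdx1 was weaker (6.55), and Cdx2, Cdx4, Cyp26a1, Cyp26c1 and Rxrg had none. Among polycomb and trithorax genes, whose proteins repress and maintain Hox expression, 18 of 21 had one. Cbx7 (30.9) and Kmt2a (17.1) had the highest mean folds, and Cbx2 and Cbx8 shared a region at 14.9. These lists describe regions near genes, and the levels of their RNA were not measured here.

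Other homeobox genes of development stood between the Hox genes and all genes. Of 63 such genes, 19 (30.2%) had a 4-antibody region within 10 kb, against 58.6% of all genes. A peak of any antibody was found for 31 of 63, against 72.6% of all genes, and the median distance to a 4-antibody region was 39.9 kb. The strongest lay at Nkx2-2, a neural tube factor (chromosome 2, 147190158 to 147191058), with folds of 34.4 to 45.9. Next were Pax6 (mean fold 35.9) and Pax7 (20.2). The difference between the Hox genes and these genes was not tested, since neighbouring Hox genes share their surroundings.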

How the data were processed

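ChIP-seq of 4 NKX2-1 antibody libraries and 1 input was analysed from the deposited peak tables. Each antibody library was compared by the authors with the same input in MACS 2.1.2, at a q cutoff of 0.05, per the file headers. Per the submitters' processing notes, reads were handled with FastQC, Trimmomatic, Bowtie, SAMtools, MACS2 and deepTools on mm10, and versions other than that of MACS2 are not given in the sources used here. Each deposited line gives the pileup signal in tags, the fold enrichment as a ratio over local background, and −log10 p-values and q-values. Per the file headers, duplicate tags were removed and the smaller library was scaled up, which in these data was the input.

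Peaks overlapping by at least 1 bp were merged. A gene was counted if a summit lay inside it or within 10 kb, and clusters ran from the first to the last Hox gene with 50 kb on each side. The fold of a region in a library is that of its highest peak, and a mean fold is the mean over the antibodies with a peak. Genes came from RefSeq GRCm38.p6, and promoters, with their strand, from a RefSeq sequence table that matched 22 of 39 Hox genes. No genome sequence was used, so peak sequences are not shown. Scripts ran in Python 3.11.15 with pandas 2.3.3 and SciPy 1.17.1 and were tested on simulated data. Members, gene lists and thresholds were chosen with earlier results of these data known. Genes were named by rule, which took Hox genes with regions, genes at gap edges and the 3 strongest of each list. Results on 2 of the genes are not reported here by name. Alternatives covered peak thresholds, overlap, distance, flanks and each left-out library.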

Additional observations from a re-analysis of the deposited data

How the results depend on the processing

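The share of Hox genes with a 4-antibody region, and with any peak, was below that of all genes at each peak threshold and distance tried, but the counts are so small that many moved by more than 1.5 times. With peaks of −log10 q of at least 5, Abcam133737 had a peak at 1 Hox gene, Millipore07-601 at 4 and any antibody at 4, against 70.7% of all genes with any peak and 54.0% with a 4-antibody region. With a fold of at least 5, 0 Hox genes had a 4-antibody region, Abcam133737 and Abcam76013 had a peak at 0, Millipore07-601 at 2 and any antibody at 3 (all genes 43.4% with a 4-antibody region and 64.8% with any peak), and the clusters held 5 regions and 0 4-antibody regions. With the 10000 strongest peaks of each list, the counts of Hox genes with a 4-antibody region, with a peak of each antibody and with any peak, and of regions in the clusters, were all 0, while 22.2% of all genes had a 4-antibody region and 35.1% any peak. With a reciprocal overlap of 50% or summits within 100 bp, the clusters held 1 4-antibody region. Within 2 kb, 0 Hox genes had a 4-antibody region, Abcam133737 had a peak at 1, Millipore07-601 at 2, any antibody at 2, and Abcam76013 and Abcam133638 at 0, against 50.1% and 66.1% of all genes with a 4-antibody region and with any peak. Within 50 kb, 3 Hox genes had a 4-antibody region, Abcam133737 had a peak at 10, Millipore07-601 and any antibody at 21, and Abcam76013 and Abcam133638 at 3, against 74.6% and 82.6% of all genes. With the summit inside the gene all of these counts were 0, against 39.3% and 55.5%. With flanks of 0 kb there were 3 regions and 0 4-antibody regions, and with 100 kb there were 19 and 8. With at least 3 antibodies 1 Hox gene had a region, and with at least 2, both chosen after seeing the data, 2 Hox genes had a region, against 68.3% of all genes. Leaving out each library in turn gave 2 to 7 Hox genes with any peak, the 2 without Millipore07-601. It gave 1 Hox gene with a region of all remaining antibodies each time, and 2 to 3 such regions in the clusters, the 3 without Abcam133737. Without predicted and chemoreceptor genes the share of all genes was 65.7%. The motif share moved to 0% of Hox promoters for CACTCAAG, against 1.13% of all promoters, and to 83.3% for CAAG, against 90.6%. The motif search around summits was not run, since it needs a genome. No paired analysis was possible because each antibody has 1 library. Weak sites under the q cutoff cannot be seen in peak lists, and the shallow input limits the local background.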

Other observations

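Some gaps between 4-antibody regions held more named protein-coding genes than the Hox gaps. The examples here were picked after their values were seen. The one with the most named genes, 42, held the Defa genes for intestinal antimicrobial peptides (chromosome 8, 1432 kb). The next, with 39, held the Rhox genes, a homeobox cluster of the X chromosome known from reproductive tissues (1143 kb). Gaps with 24 named genes included those of the Klk protease genes on chromosome 7 (532 kb) and the Krtap hair keratin-associated genes on chromosome 16 (1212 kb). The hair and basal keratin genes around Krt5 on chromosome 15 lay in a gap with 20 named genes (516 kb).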
